A study of Homo sapiens with 36 samples.

Results

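Kinesins are motor proteins that use ATP to move along microtubules or to take them apart. The family was defined here by symbol, as every gene named KIF or KIFC with a number and an optional letter A to C. This gave 42 genes of the 62710 in the count table, which were placed by textbook role into 14 mitotic kinesins, 16 transport kinesins and 12 others. RNA was measured in 36 libraries from H9 cells, an established human embryonic stem cell line. All groups carried NGN2, a proneural transcription factor switched on by doxycycline to turn stem cells into neurons (iNeurons). Cells labelled WT, RAI1+/- (HET) or RAI1-/- (KO) were taken on day 0, 3 or 7 of differentiation, with 4 biological replicates in each of the 9 groups. RAI1 encodes a chromatin-associated regulator. The shared medium was Neurobasal-A with GlutaMAX, B27, GDNF, NT3 and CultureOne, a supplement sold to limit dividing progenitors. The number of clones per genotype was not given in the sources used here, so the p-values measure the spread between cultures and not between clones.

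Dividing cells need kinesins that build and read the spindle. KIF11 pushes the poles apart, KIF2C strips tubulin from microtubule ends, KIF4A and KIF22 bind chromosome arms, and KIF23 and KIF20A organise the midzone before cytokinesis. A neuron that has left the cell cycle keeps other kinesins for long-distance traffic. KIF1A and KIF1B carry vesicle precursors, KIF5A, KIF5B and KIF5C are heavy chains of conventional kinesin, and KIF3A, KIF3B and KIF3C form kinesin-2 motors. Promoters of mitotic genes often hold a CCAAT box, the binding sequence of NF-Y, upstream of a cell cycle homology element close to the start, which MuvB complexes bind.

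Since the mitotic kinesins fell together over time, their promoters were compared with those of the transport kinesins, using RefSeq sequences on GRCh38.p14 from 250 bases before to 50 after the start. Of the 42 kinesins, 34 had a promoter in that table. All mitotic kinesins had one. The transport kinesins KIF5A, KIF13B, KIF21B and KIFC2 had none, nor had KIF19, KIF26B, KIF27 and KIFC3 of the others. The shares below leave these genes out. The homology element, searched as TTTGAA or TTCGAA on both strands, was present in 11 of 14 mitotic promoters (78.6%), in 1 of 12 transport promoters (8.33%) and in 1 of 8 others (12.5%). The share over all 27305 promoters was 16.6%. In the mitotic promoters its first base lay between 55 bases before and 31 bases after the start. CCAAT, on both strands, was present in 11 of 14 mitotic promoters, in 3 of 12 transport promoters (25%) and in 35.7% of all promoters. Both occurred together in 10 of 14 mitotic promoters (71.4%), against 6.58% of all. KIF2C and KIF2B held neither, KIF15 held the homology element alone and KIF20A held CCAAT alone. The 14 include KIF2B and KIF4B, which had too few counts to be tested over time in WT. CAGATG, a sequence that proneural factors can bind, was present in 0 of 14 mitotic and 1 of 12 transport promoters, against 14.8% of all. A match describes letters and is not shown to be a bound site.

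The stretches below run from 150 bases before to 10 after the RefSeq start, on the strand of the gene, with the homology element and CCAAT in capitals, as read on either strand. KIF11 (chr10:92592980-92593139), KIF23 (chr15:69414199-69414358), KIF4A (chrX:70289954-70290113) and KIF22 (chr16:29790601-29790760) are on the plus strand and show the paired arrangement. KIF20A (chr5:138178962-138179121, plus strand) shows CCAAT alone. KIF5B (chr10:32056416-32056575, minus strand) is the transport promoter that held both, with TTTGAA 140 bases upstream. KIF3C (chr2:25982488-25982647, minus strand) held neither.
KIF11: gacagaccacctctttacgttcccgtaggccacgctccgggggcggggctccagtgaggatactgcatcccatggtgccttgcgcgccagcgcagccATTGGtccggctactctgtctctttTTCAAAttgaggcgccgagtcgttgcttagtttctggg
KIF23: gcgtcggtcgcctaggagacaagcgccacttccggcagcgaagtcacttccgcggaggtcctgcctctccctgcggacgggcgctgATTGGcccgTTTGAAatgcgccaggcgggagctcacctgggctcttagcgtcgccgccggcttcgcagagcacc
KIF4A: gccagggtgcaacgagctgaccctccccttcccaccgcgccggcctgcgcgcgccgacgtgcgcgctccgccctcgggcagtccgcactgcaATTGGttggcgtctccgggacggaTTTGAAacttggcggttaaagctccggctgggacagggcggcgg
KIF22: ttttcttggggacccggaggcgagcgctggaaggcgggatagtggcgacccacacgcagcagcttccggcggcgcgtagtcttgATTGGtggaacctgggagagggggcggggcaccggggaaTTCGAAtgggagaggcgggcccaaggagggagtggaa
KIF20A: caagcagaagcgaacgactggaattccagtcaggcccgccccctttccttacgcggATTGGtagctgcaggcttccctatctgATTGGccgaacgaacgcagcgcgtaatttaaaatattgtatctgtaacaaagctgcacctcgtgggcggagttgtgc
KIF5B: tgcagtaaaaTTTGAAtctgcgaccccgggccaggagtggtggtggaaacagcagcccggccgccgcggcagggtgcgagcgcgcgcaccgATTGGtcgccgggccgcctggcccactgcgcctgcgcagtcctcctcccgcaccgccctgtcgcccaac
KIF3C: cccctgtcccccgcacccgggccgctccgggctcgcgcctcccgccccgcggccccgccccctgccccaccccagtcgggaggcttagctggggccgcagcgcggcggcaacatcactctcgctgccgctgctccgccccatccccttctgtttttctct
In KIF11 the homology element began 28 bases before the start and CCAAT 53 before it. In KIF23 these distances were 55 and 64 bases.

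Library totals were 23.9 M to 56.7 M counts. Levels are given as CPM, counts scaled to a common library size with TMM factors, and levels of different genes are compared only as TPM, which allows for length. Small structural RNAs, 5 genes in all, took 2.84% to 27.5% of a library, with the highest share in HET day 7 replicate 1. At day 3 the share was 8.99% to 19.6% in WT, 3.54% to 18.75% in KO and 5.11% to 16.1% in HET. At day 7 it was 14.5% to 25.6% in WT, 9.9% to 15.8% in KO and 2.84% to 27.5% in HET. The ranges overlapped on both days, and a difference by genotype was not tested. WT day 7 replicate 1 also stood apart. Among the WT day 7 libraries it was the highest for all 13 mitotic kinesins that had over 3 counts in any of them. For 13 of 16 transport kinesins it was the lowest. The labels were checked against marker lists. Summed CPM of 7 stem cell markers was 979 to 1440 in WT at day 0 and 28.5 to 37.9 at day 7, while that of 10 neuronal markers was 274 to 549 and 7040 to 14000. Summed CPM of 6 mesenchymal markers was 257 to 1120 in WT at day 0 and 26.2 to 35.8 at day 7, and that of 7 glial markers was 55.5 to 88.6 and 110 to 314. RAI1 itself averaged 52.3 CPM at day 7 in WT, beside 73.3 for HET and 84.6 for KO. The KO difference from WT (log2 0.69) passed edgeR's test at an adjusted p under 0.05, though libraries overlapped, and that of HET did not pass. The labels do not say which part of the gene was changed, so a gene-level count does not check the genotype labels. In bulk RNA, fewer cells of a type and less RNA per cell cannot be told apart.

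**Figure D1:**
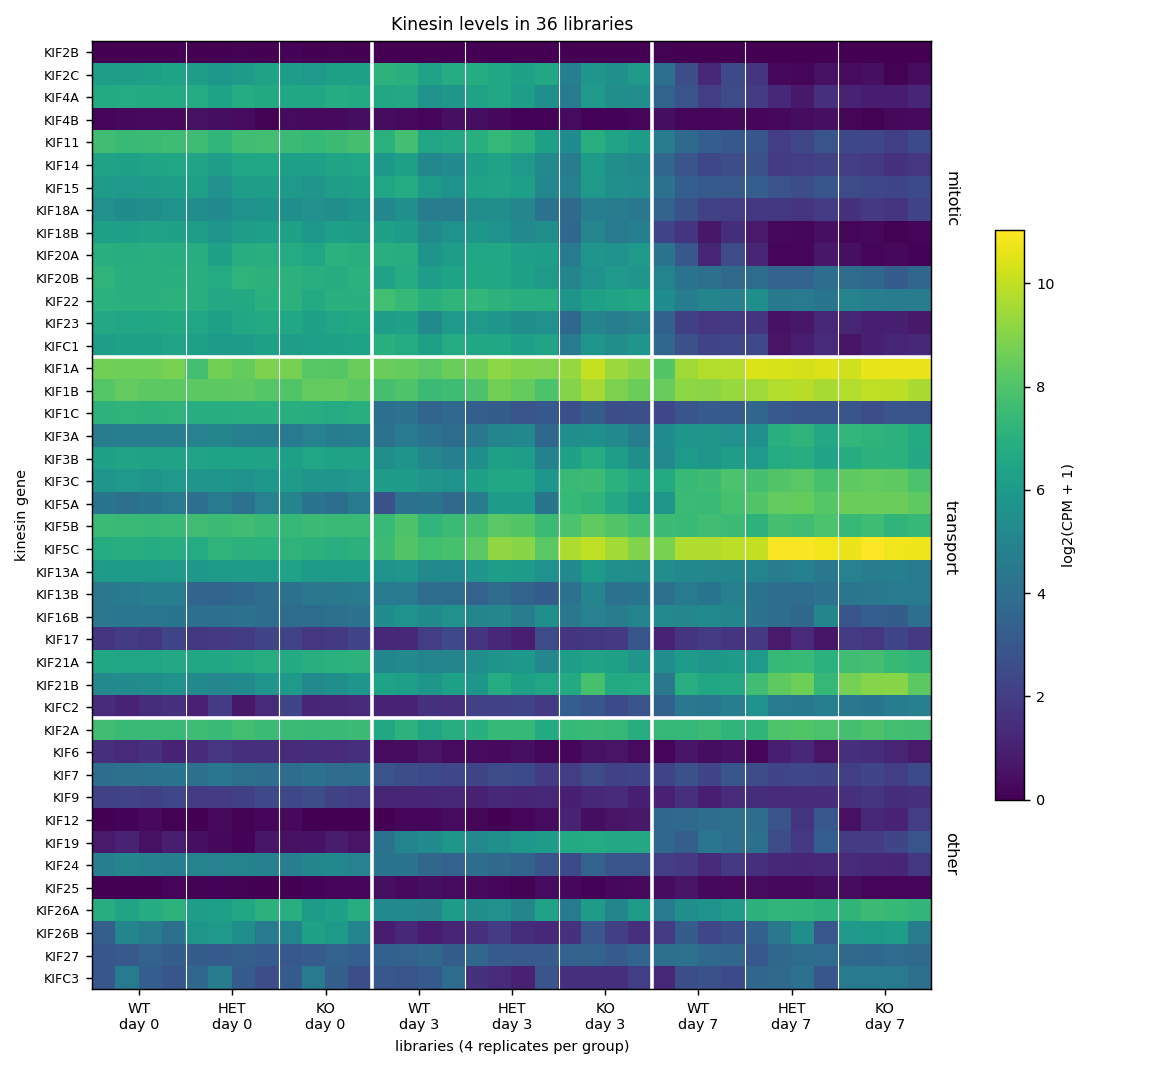
Level of each of the 42 kinesins (rows, grouped by role) in each of the 36 libraries (columns, 4 per group), as log2(CPM + 1) by colour. The mitotic block turns dark at day 7, earlier in KO, and further in KO and HET than in WT, while KIF1A, KIF1B and KIF5C turn bright.

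The first question was how the family changes as WT cells become neurons. From day 3 to day 7, 29 of 40 tested kinesins changed in WT, 13 higher and 16 lower, against 46.2% of all 22268 genes tested (23.3% higher, 22.9% lower). All 12 tested mitotic kinesins fell, with a median log2 change of -3.43 against 0.01 over all genes. Among 16 transport kinesins 9 rose and 2 fell, with a median of 0.68, and among 12 others 4 rose and 2 fell. Without WT day 7 replicate 1 the counts were 12 lower for the mitotic kinesins and 10 higher and 3 lower for the transport kinesins. On TPM 7 kinesins were higher and 16 lower. Calls are from edgeR's quasi-likelihood test, with p-values adjusted over all genes tested and a threshold of 0.05. The shares of all genes beside the counts are from this fit. Counts on TPM or under other settings stand without such a share, so these counts were not compared with all genes.

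KIF11 was 131, 209, 89.6 and 99 CPM in the 4 WT libraries at day 3 and 23.8, 12.6, 8.92 and 7.31 at day 7. The groups were far apart, with replicate 1 the highest at day 7, and the log2 change was -3.33 ± 0.35 (SE, adjusted p = 2.74e-06). KIF2C went from 137, 126, 80.1 and 111 CPM to 15.1, 5.17, 1.39 and 4.59 CPM, a log2 change of -4.12 ± 0.49 (adjusted p = 9.98e-06). Again replicate 1 was the highest of the day 7 libraries and no value overlapped. KIF18B, a motor that trims the plus ends of mitotic microtubules, fell by 4.81 on the log2 scale, the largest fall of any tested mitotic kinesin. KIFC1, a minus-end motor that focuses spindle poles, fell by 4.03. KIF20B, which acts in cytokinesis, had the smallest fall, 2.16. KIF24, a centriolar kinesin counted among the others, also fell, from 17.9, 17.8, 11.3 and 9.94 CPM to 3.03, 2.56, 1.51 and 2.54 CPM (log2 change -2.56 ± 0.24, adjusted p = 1.17e-06).

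These falls ran beside a fall in 10 markers of dividing cells, all 10 of which fell, from 1690 to 2920 summed CPM at day 3 to 79.7 to 312 at day 7. None of the 10 was at 3 counts or fewer in every library of a group. All 16 spindle and midzone partners of these motors fell as well, with a median of -3.17. AURKB, the kinase of the chromosomal passenger complex that KIF20A carries, went from a mean of 110 CPM to 4.67 CPM (log2 change -4.56 ± 0.49, adjusted p = 3.57e-06).

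Between day 0 and day 3 the mitotic kinesins had moved little. In WT 19 of 40 kinesins changed, 4 higher and 15 lower, against 60% of 22268 genes (31.2% higher, 28.7% lower). Of the 12 tested mitotic kinesins 0 rose and 2 fell, KIF14 (log2 change -0.68) and KIF20B (-0.58), and both calls were lost when any of 7 of the 8 libraries was left out, KIF14 to an adjusted p = 0.138 and KIF20B to an adjusted p = 0.0955 without WT day 3 replicate 3. KIF2C had a log2 change of 0.59 ± 0.43 and did not pass (adjusted p = 0.25). Transport kinesins gave 2 higher and 6 lower. On TPM the split over the family was 1 higher and 28 lower. The TPM of all genes had a median log2 change of -0.83 over this interval, against 0.07 for the counts, so falls on TPM were not particular to kinesins.

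KIF1C, a broadly expressed vesicle motor, was 137, 142, 138 and 145 CPM at day 0, and 15.2, 17.1, 11.2 and 12.5 CPM at day 3. The WT libraries did not overlap, and the log2 change was -3.33 ± 0.20 (adjusted p = 8.1e-09). Of its relatives, KIF1A had a log2 change of -0.24 ± 0.26 (adjusted p = 0.439) and KIF1B fell by 0.52 (adjusted p = 0.0198, lost without WT day 3 replicate 3). KIF1C made up 24.1% ± 0.9 of the TPM of KIF1A, KIF1B and KIF1C at day 0 and 3.63% ± 0.65 at day 3 (SD, n = 4). KIF21A, which limits microtubule growth, fell by 1.51 and KIF16B, a motor of early endosomes, rose by 1.18. Among the others KIF19, a motor that shortens ciliary microtubules, rose from 0.715, 1.14, 0.424 and 0.901 CPM to 16.8, 30, 39.1 and 55.7 CPM (log2 change 5.47 ± 0.41, adjusted p = 6.97e-08). KIF26B, which lacks ATPase activity, fell by 4.31 (adjusted p = 1.21e-06), and KIF7, a Hedgehog pathway component, fell by 1.73.

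The transport kinesins rose mainly after day 3. KIF5A, the neuronal conventional kinesin, was 5.74, 16.8, 18 and 12.9 CPM in WT at day 3 and 56.5, 180, 171 and 224 at day 7. Replicate 1 was the lowest library on both days, and the log2 change was 3.57 ± 0.40 (adjusted p = 5.8e-06). KIF5C, its other neuronal paralog, went from 188, 264, 207 and 222 CPM to 445, 845, 827 and 982 CPM (log2 change 1.82 ± 0.20, adjusted p = 5.4e-06). KIF5B, the ubiquitous paralog, was 179, 243, 150 and 184 CPM and then 185, 169, 198 and 186 CPM, with full overlap and a log2 change of -0.03 ± 0.14 (adjusted p = 0.865). KIFC2, a minus-end motor of neurons, had the largest rise of a transport kinesin (log2 change 3.60 ± 0.32, adjusted p = 5.98e-07), from a mean of 1.53 CPM to 18.5 CPM. KIF1A rose by 0.98 and KIF3C by 1.59, while KIF21B, at 0.22 ± 0.36, did not pass.

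Within the KIF5 family the order of levels turned over. KIF5B held 53.9% ± 3.9 of KIF5 TPM in WT at day 0, and 16.3% ± 6.4 at day 7 (SD, n = 4). KIF5C held 37.7% ± 2.9 and then 68.2% ± 3.3, and KIF5A 8.41% ± 1.5 and then 15.5% ± 3.4. No library overlapped between the days for KIF5B or KIF5C, and the KIF5A shares, 6.95% to 10.5% and 10.6% to 18.6%, nearly met. KIF3C held 48.7% ± 4.0 of the TPM of KIF3B and KIF3C at day 0 and 80.2% ± 1.4 at day 7. By TPM the most abundant kinesin in WT was KIF22 at day 0 (48.7 TPM), above KIF1A (44.3 TPM) in 4 of 4 libraries, and KIF5C at day 7 (45.8 TPM), above KIF1A (30.4 TPM) in 4 of 4. KIF20A, KIF20B, KIFC1, KIF1B and KIF11 stood at 30.6 to 33.2 TPM at day 0, each above the next in 2 of 4 libraries up to KIF11, so their order was not resolved.

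**Figure D2:**
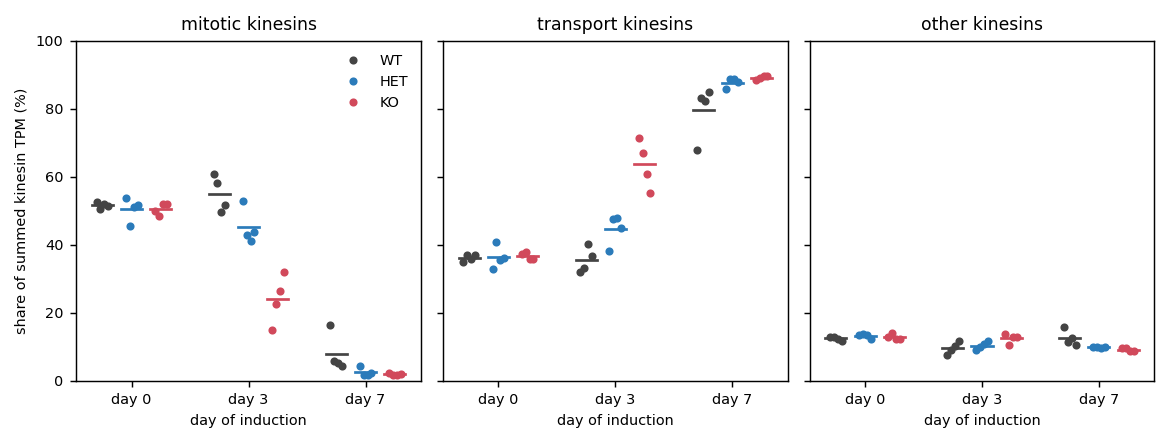
Share of the summed TPM of all 42 kinesins held by mitotic, transport and other kinesins (vertical axis, percent) by day (horizontal axis); points are libraries, short lines are group means. The mitotic share falls from a mean of 51.6% at day 0 to 7.9% at day 7 in WT, and KO libraries at day 3 (14.9% to 32%) lie below all WT day 3 libraries (49.7% to 60.8%).

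The second question was whether RAI1 genotype changes this course. Comparisons of HET and KO with WT share the WT libraries, so their values are set side by side and are not independent. At day 0 the family hardly differed. Of 38 tested kinesins 2 passed for KO against WT (background 2.08% of 20437 genes, 1.66% higher and 0.416% lower), 2 for HET against WT (1.63%, with 1.22% higher and 0.411% lower) and 1 for KO against HET (0.856%, with 0.524% higher and 0.333% lower). Mitotic kinesins held 51.6% ± 0.8 of kinesin TPM in WT cells (SD, n = 4), beside 50.5% ± 3.5 for HET and 50.5% ± 1.8 for KO, and no mitotic kinesin passed.

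KIF13B, a transport motor that binds guanylate kinase scaffolds, was 20.3, 21.7, 24.9 and 25.6 CPM in WT at day 0. In HET it was 11, 10.8, 11.7 and 14.4 CPM, and in KO 16.7, 20.2, 20.6 and 21.5. All HET libraries lay below all others, with a log2 difference of -0.92 ± 0.12 from WT (adjusted p = 0.000586), and KO exceeded HET by 0.73 ± 0.12 (adjusted p = 0.00707). KO against WT did not pass (adjusted p = 0.554). KIF1C was lower in both mutants, by 0.23 in KO (adjusted p = 0.0293) and by 0.21 in HET (adjusted p = 0.0471), and KIF21A was higher in KO by 0.44 (adjusted p = 0.0167). Each of these 3 calls was lost when single libraries were left out, 5, 8 and 5 of the 8 in turn, with adjusted p up to 0.0963, 0.153 and 0.0734. With replicates as a block, since same-numbered libraries deviated together for KO against WT on this day, KIF26B also passed (log2 1.33, adjusted p = 0.0255).

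At day 3 the KO libraries had fewer transcripts of mitotic kinesins and more of transport kinesins than WT. Of 40 tested kinesins 23 differed, 12 higher and 11 lower, against 21.6% of 21563 genes (12.6% higher, 8.93% lower). Mitotic kinesins gave 0 higher and 7 lower of 13, with a median of -0.88 against -0.05 over all genes. Transport kinesins gave 9 higher and 2 lower of 16, with a median of 0.99, and others 3 higher and 2 lower of 11. On TPM, whose all-gene median moved by 0.37, only 3 kinesins passed, 3 higher and 0 lower, and the mitotic median relative to all genes was -0.82.

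KIF2C was 26.4, 52.4, 45.7 and 59.7 CPM in KO at day 3 against 137, 126, 80.1 and 111 in WT, with HET at 112, 93.7, 78.8 and 95.4. KO lay below both other groups without overlap, and differed from WT by -1.32 ± 0.24 on the log2 scale (adjusted p = 0.00161). KIF23, the motor subunit of centralspindlin, was 12.2, 31.8, 25.3 and 29.1 CPM in KO against 71.9, 77.9, 37.9 and 61 in WT (log2 difference -1.36 ± 0.28, adjusted p = 0.00349). KIFC1 differed by -1.32, KIF22 by -1.07 and KIF18B by -1.32. KIF20A, at 22.5, 52.5, 49.6 and 61.9 CPM in KO and 120, 115, 50.7 and 70.9 in WT, overlapped. Its call (log2 difference -0.95 ± 0.31, adjusted p = 0.0413) was lost without any of 6 of the 8 libraries, up to an adjusted p = 0.124 without WT day 3 replicate 1. KIF11 overlapped too, with 40.6, 120, 86.6 and 67.6 CPM in KO, and did not pass (log2 difference -0.77 ± 0.34, adjusted p = 0.119). With replicates as a block, since same-numbered libraries deviated together here, KIF11 (adjusted p = 0.0213), KIF4A (0.0174), KIF15 (0.0176), KIF3B (0.000778), KIF5B (0.0309) and KIF2A (0.0442) passed as well.

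Among the KO day 3 libraries replicate 1 was the lowest for 12 of the 13 mitotic kinesins that had over 3 counts in any of them. Without it 6 mitotic kinesins were lower with a median of -0.72. The dividing cell markers moved alongside, 7 of 10 lower, with summed CPM of 551 to 1450 in KO, 1690 to 2920 in WT and 1870 to 2490 in HET. Neuronal markers were higher for 9 of 10, at 5750 to 9360 summed CPM in KO and 1450 to 1810 in WT. Their part in the kinesin differences was not tested.

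Among transport kinesins KIF5A differed most. It was 166, 147, 98.5 and 62.7 CPM in KO at day 3, 24.8, 66.2, 64.7 and 18.7 in HET and 5.74, 16.8, 18 and 12.9 in WT. Every KO and HET library exceeded every WT library. KO differed from WT by 3.13 ± 0.48 on the log2 scale (adjusted p = 0.000501), and HET by 1.71 ± 0.45 without passing (adjusted p = 0.0591). KIF5C was 812, 993, 727 and 484 CPM in KO, 298, 577, 529 and 294 in HET and 188, 264, 207 and 222 in WT, with the same order and no overlap with WT (KO log2 difference 1.75 ± 0.27, adjusted p = 0.000479). KIF5B, at 240, 323, 263 and 212 CPM in KO, overlapped WT (log2 difference 0.44 ± 0.20, adjusted p = 0.132). KIFC2 was 2.10 higher (adjusted p = 0.000181), KIF3C 1.3 higher and KIF1A 1.03 higher in KO. Against this trend KIF1C was 1.19 lower (adjusted p = 0.00142) and KIF16B 0.79 lower (adjusted p = 0.0107). KIF21B, which regulates microtubule growth in neurons, was 0.89 higher (adjusted p = 0.0297). This call was lost without any of 4 of the 8 libraries, up to an adjusted p = 0.0993 without KO day 3 replicate 2, which at 226 CPM exceeded the remaining KO libraries (106 to 108).

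**Figure D3:**
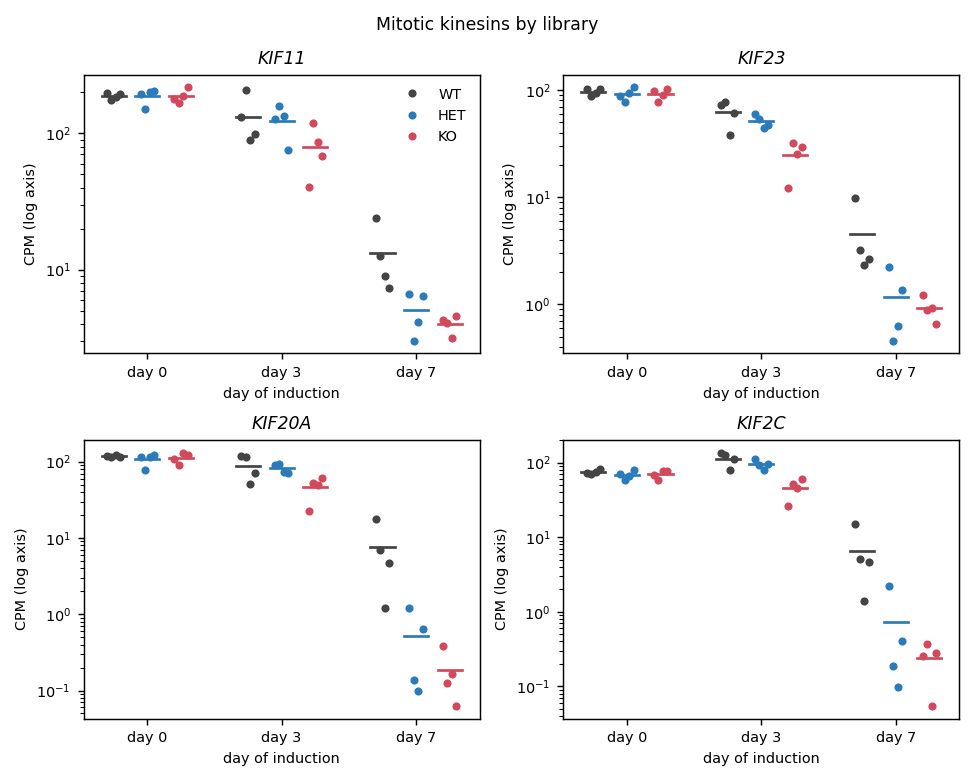
CPM (log axis) of 4 mitotic kinesins by day; points are libraries and short lines are group means. KO lies below WT at days 3 and 7, with overlap for KIF11 and KIF20A at day 3, and WT day 7 replicate 1 is the highest WT point at day 7 in all 4 genes.

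HET differed less from WT at day 3. Of 40 kinesins 2 passed, against 3.28% of all genes (2.52% higher): KIFC2, 1.14 higher (adjusted p = 0.0381), and KIF1C, 0.84 lower (adjusted p = 0.0473). Both were lost without single libraries, KIFC2 for 6 and KIF1C for 8 of the 8, and the count ran from 0 to 5, the latter without HET day 3 replicate 4. With replicates as a block, for the same reason, 8 passed, 5 higher and 3 lower. These added KIF5A (log2 1.59, adjusted p = 0.0182), KIF5C (0.90, adjusted p = 0.0111), KIF1B, KIF21A, KIF13B and KIFC3. No mitotic kinesin passed in either fit, and the mitotic median was -0.17, which on TPM was 0.13, or -0.13 relative to all genes.

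The direct comparison of KO with HET at day 3 gave 6 of 40 kinesins, against 4.35% of all genes (2.77% higher, 1.58% lower), with 2 higher and 4 lower. KIF2C (log2 difference -1.08, adjusted p = 0.023), KIF23 (-1.09, adjusted p = 0.04), KIFC1 (-1.06, adjusted p = 0.0319) and KIF22 (-0.83, adjusted p = 0.0375) were lower in KO. KIF3C (0.87, adjusted p = 0.0397) and KIF13B (0.93, adjusted p = 0.0491) were higher. Leaving out 1 library gave 0 to 8, with 0 without HET replicate 1 or KO replicate 3, 1 without HET replicate 2, and 2 without HET replicate 3, KO replicate 1 or KO replicate 2. With library size alone 1 kinesin was higher and 4 lower. Other settings raised the count, to 15 with DESeq2 and 14 with the structural RNA share as a covariate. KIF5A, 1.41 higher in KO than in HET, did not pass (adjusted p = 0.0987).

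At day 7 both mutants differed from WT in the same groups. For KO against WT 28 of 40 kinesins differed, 13 higher and 15 lower, against 32.6% of 21714 genes (17% higher, 15.6% lower). Of 12 tested mitotic kinesins 0 were higher and 11 lower, with a median of -2.0, and of 16 transport kinesins 9 were higher and 2 lower, with a median of 0.76. Without WT day 7 replicate 1, 9 mitotic kinesins were lower (median -1.41), and 9 transport kinesins higher and 1 lower (median 0.59). On TPM 8 kinesins were higher and 1 lower, with the all-gene median at 0.40.

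KIF20A was 0.385, 0.124, 0.164 and 0.0629 CPM in KO at day 7, 1.22, 0.136, 0.098 and 0.642 in HET and 17.8, 7, 1.21 and 4.68 in WT. KO lay below WT without overlap, while HET replicate 1 met the lowest WT library. The KO values stand for only 2 to 15 counts per library, so the fitted difference of -5.34 ± 0.95 (adjusted p = 0.0012) rests on few counts. KIF2C, at 0.257, 0.373, 0.0548 and 0.283 CPM in KO and 15.1, 5.17, 1.39 and 4.59 in WT, also rested on 2 to 15 counts in KO (log2 difference -4.74 ± 0.99, adjusted p = 0.00305). KIF23 was 1.23, 0.894, 0.932 and 0.661 CPM in KO and 9.87, 3.2, 2.31 and 2.68 in WT (log2 difference -2.27 ± 0.56, adjusted p = 0.00777). KIF11 kept a higher floor, with 4.26, 4.02, 3.12 and 4.53 CPM in KO and 7.31 to 23.8 in WT (log2 difference -1.72 ± 0.36, adjusted p = 0.00341). KIFC1 was lower by -2.67 on the log2 scale and KIF20B by -0.76, the latter lost without WT day 7 replicate 1 (adjusted p = 0.152). KIF22 was the mitotic kinesin that did not pass (log2 difference -0.26 ± 0.26, adjusted p = 0.463), and in all 3 genotypes it was 18.3 to 44.4 CPM at day 7. Dividing cell markers were lower for 9 of 10, at 43.4 to 50.9 summed CPM in KO, 44.8 to 58.8 in HET and 79.7 to 312 in WT, and their part in these differences was not tested.

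KIF21B had the largest difference of a transport kinesin at day 7. It was 420, 522, 534 and 299 CPM in KO, 201, 316, 384 and 161 in HET and 20.3, 121, 96 and 100 in WT. All mutant libraries exceeded all WT libraries, by 2.39 ± 0.45 in KO (adjusted p = 0.00174) and 1.65 ± 0.44 in HET (adjusted p = 0.0249), and WT replicate 1 was far below its group. The HET call was lost without any of 3 of the 8 libraries, up to an adjusted p = 0.0814 without HET replicate 3. KIF21A was 1.68 higher in KO (adjusted p = 0.000884) and 1.23 higher in HET (adjusted p = 0.0116). KIF1A was 1180, 1560, 1640 and 1670 CPM in KO, 1330, 1320, 1260 and 1370 in HET and 271, 693, 850 and 887 in WT, again without overlap (KO log2 difference 1.16 ± 0.29, adjusted p = 0.00911). KIF5C differed by 1.22 ± 0.26 in KO (adjusted p = 0.00382) and by 1.11 ± 0.26 in HET (adjusted p = 0.0135). KIF5A differed by 1.17 in KO (adjusted p = 0.0115) and by 0.92 in HET (adjusted p = 0.0603). KIF3C was 0.74 higher in KO (adjusted p = 0.0211), which gave an adjusted p = 0.0616 without KO replicate 1. KIF5B stayed among the kinesins that did not pass (KO log2 difference -0.12 ± 0.17, adjusted p = 0.608), and its share of KIF5 TPM was 7.04% ± 0.73 in KO (SD, n = 4), beside 8.47% ± 1.0 for HET and 16.3% ± 6.4 for WT. KIF16B went the other way, at 6.57, 8.84, 8.44 and 15.4 CPM in KO against 35.5, 33.2, 37.4 and 32.1 in WT (log2 difference -1.81 ± 0.32, adjusted p = 0.00104). Neuronal markers moved with the transport kinesins, 6 of 10 higher in each mutant, at 17200 to 23500 summed CPM in KO, 14900 to 20000 in HET and 7040 to 14000 in WT. Mesenchymal markers summed to 0.904 to 3.65 CPM in KO, 1.2 to 29.5 in HET and 26.2 to 35.8 in WT. The part of either list in these differences was not tested.

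**Figure D4:**
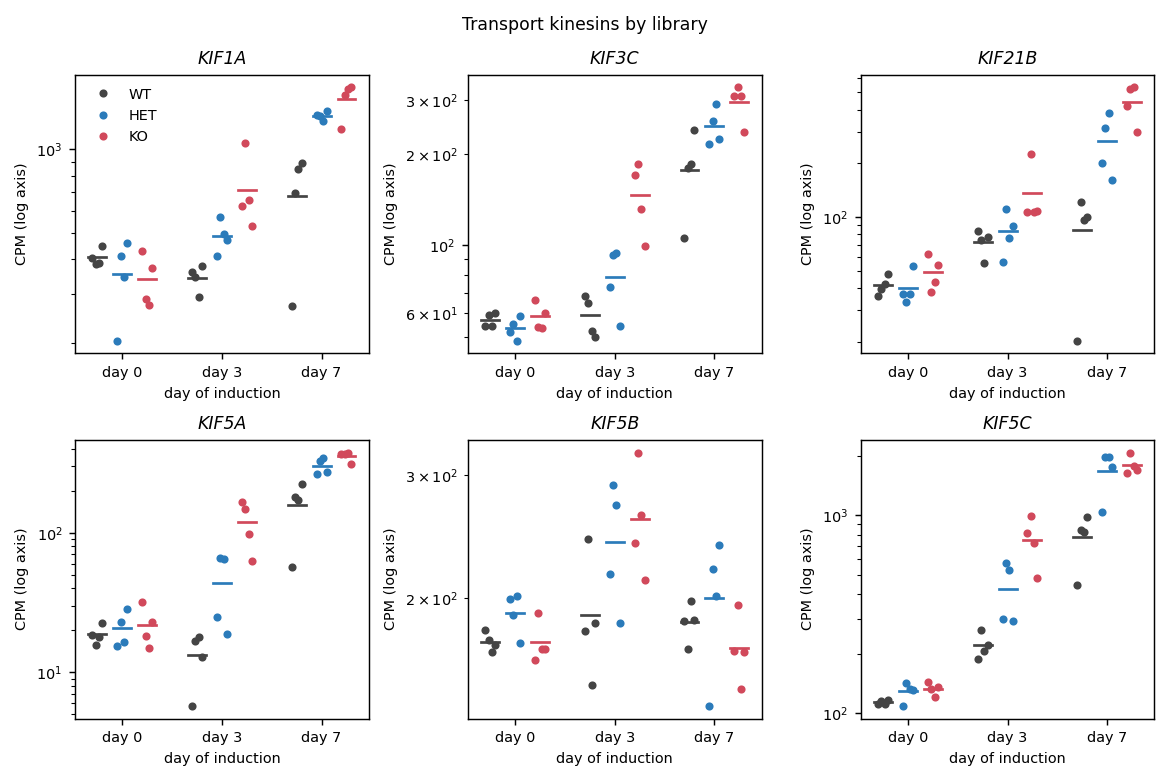
CPM (log axis, a separate range in each panel) of 6 transport kinesins by day; points are libraries and short lines are group means. KO exceeds WT at days 3 and 7 for KIF1A, KIF5A and KIF5C, KIF5B overlaps in all groups, and WT day 7 replicate 1 is lowest in its group except for KIF5B.

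For HET against WT at day 7, 16 of 40 kinesins differed, 9 higher and 7 lower, against 14.4% of 21714 genes (8.31% higher, 6.1% lower). Mitotic kinesins gave 0 higher and 7 lower of 12, with a median of -1.60, and transport kinesins 6 higher and 0 lower of 16, with a median of 0.65. On TPM 6 were higher and 0 lower, and the mitotic median turned to 0.21 over the 3 members above the TPM filter, or -0.51 relative to the all-gene median of 0.72. Leaving out HET replicate 1, the library with the highest structural RNA share, raised the number to 29. Leaving out another library lowered it, to 10 for WT replicate 1, to 7 for HET replicate 2 and to 6 for HET replicate 3. The share of all genes called without each library was not set beside these numbers, so they do not single out the kinesins. Without HET replicate 1, 11 of 13 mitotic kinesins were lower, and without WT replicate 1, 3 of 12. With the structural RNA share as a covariate 8 kinesins passed, 4 higher and 4 lower. KIF2C (log2 difference -3.17, adjusted p = 0.0305) and KIF23 (-1.95, adjusted p = 0.0305) lost their calls without WT replicate 1 (adjusted p = 0.104 and adjusted p = 0.113). KIF11 (-1.40, adjusted p = 0.0209) and KIF1A (0.96, adjusted p = 0.0424) lost theirs without HET replicate 3 (adjusted p = 0.0702 and adjusted p = 0.0863).

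Between KO and HET no kinesin passed at day 7, which does not show that they were alike. By edgeR's quasi-likelihood test 0 of 40 kinesins differed (background 1.4%, 0.668% higher), 8 had an unadjusted p under 0.05 and DESeq2 called 1. The mitotic median of KO minus HET was -0.57 and the transport median 0.22, and mitotic kinesins held 1.85% ± 0.24 of kinesin TPM in KO cells (SD, n = 4), beside 2.45% ± 1.3 for HET and 7.9% ± 5.7 for WT. The WT mean includes 16.4% in replicate 1, against 4.42% to 5.79% in the other 3 libraries.

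**Figure D5:**
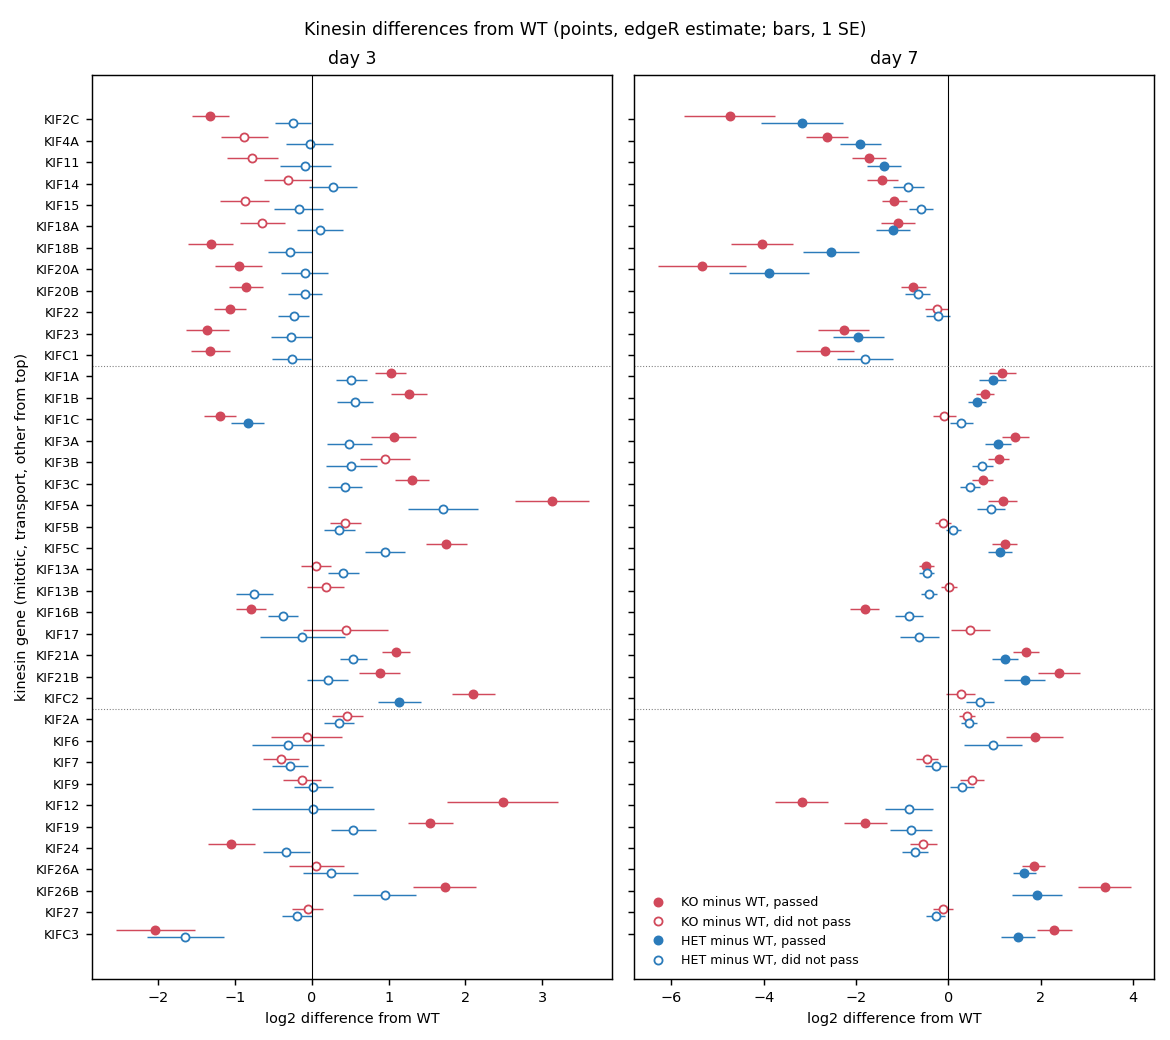
Log2 difference from WT (horizontal axis, edgeR estimate with 1 SE) at days 3 and 7 for kinesins in role order; filled points passed an adjusted p of 0.05. Mitotic points lie left of 0 and most transport points right of 0 in KO, with KIF1C and KIF16B lower at day 3.

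Kinesins outside both classes gave individual patterns. KIFC3, a minus-end motor of cell junctions, was lower in KO at day 3 and higher at day 7 by counts. At day 3 it was 1.84, 1.84, 1.85 and 3.09 CPM in KO and 7.01, 6.23, 7.68 and 14.1 in WT (log2 difference -2.03 ± 0.51, adjusted p = 0.0123). At day 7 it was 22.1, 22.1, 22.3 and 15.9 CPM in KO and 1.39, 5.27, 5.57 and 4.55 in WT (log2 difference 2.29 ± 0.37, adjusted p = 0.000718). In CPM the groups did not overlap on either day. In TPM they overlapped at day 3, at 0.36 to 1.94 in KO and 0.89 to 1.67 in WT, and the difference on log2(TPM + 1) was -0.27 and did not pass (adjusted p = 0.573). KIF12, an epithelial kinesin, appeared at day 7 in WT at 11.7, 12.6, 14.3 and 15.8 CPM, after 0.0184 to 0.237 CPM at day 3 (1 to 9 counts). In KO it reached only 0.411, 1.44, 1.15 and 3.02 CPM at day 7 (log2 difference -3.18 ± 0.57, adjusted p = 0.00129). At day 3 KIF12 stood at 0.325 to 1.08 CPM in KO, a log2 difference of 2.49 from WT. That call was lost without any of 4 libraries. KIF19 was higher in KO at day 3, at 101 to 110 CPM against 16.8 to 55.7 in WT, and lower at day 7, at 2.81 to 6.17 CPM against 9.06 to 19. KIF26B was 60.6, 63.5, 70.4 and 23.8 CPM in KO at day 7 against 2.82, 8.45, 4.15 and 5.38 in WT (log2 difference 3.38 ± 0.57, adjusted p = 0.000826). Its HET difference, 1.92, was lost without HET replicate 3 (adjusted p = 0.123). KIF26A was 1.85 higher in KO and 1.65 higher in HET.

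The change over time was then compared between genotypes with interaction terms over all 36 libraries. From day 0 to day 3 the KO change differed from the WT change for 10 of 41 kinesins, 7 higher and 3 lower, against 8.55% of 24764 genes (5.37% higher, 3.19% lower). KIF5A (2.92 ± 0.54 on the log2 scale, adjusted p = 0.000702), KIF5C (1.55, adjusted p = 0.00222), KIF1A (1.31, adjusted p = 0.0172), KIF3C (1.28, adjusted p = 0.00294), KIFC2 (1.80, adjusted p = 0.0284) and KIF19 (2.13, adjusted p = 0.0314) were among the 7. The calls of KIFC2 and KIF19 were each lost without any of 8 of the 16 libraries, up to an adjusted p = 0.0792 and an adjusted p = 0.0917, and that of KIF1A without KO day 3 replicate 2 (adjusted p = 0.058). The count was 6 without WT day 3 replicate 1 or without KO day 3 replicate 1, and on TPM it was 1 higher and 0 lower. From day 3 to day 7 the KO change differed for 15 of 41 kinesins, 5 higher and 10 lower, against 18.5% of all genes (7.6% higher, 10.9% lower). On the log2 scale KIF20A (-4.39 ± 0.80, adjusted p = 0.000157), KIF2C (-3.43, adjusted p = 0.00188) and KIF18B (-2.73, adjusted p = 0.00165) fell further in KO. The KO day 7 libraries held 2 to 15 counts of KIF20A and KIF2C and 2 to 7 of KIF18B, so these sizes rest on few counts. On log2(TPM + 1) the KIF2C and KIF18B differences turned to 0.08 and 0.38, while on log2(TPM + 0.1) they were -1.35 and -0.48, and none of these passed. At day 7 both genes lay at or under 1.51 TPM in every library, so the larger pseudocount covers most of their values. The mitotic median went from -0.97 to 0.04 on log2(TPM + 1), where 0 kinesins were higher and 2 lower. On the log2 scale KIF5A rose less in KO in this interval (-1.98, adjusted p = 0.00737). It started higher there, at 62.7 to 166 CPM at day 3 against 5.74 to 18 in WT.

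For HET no kinesin passed from day 0 to day 3 in edgeR (0 of 41, background 0.271%, with 0.182% higher and 0.0888% lower), where 7 had an unadjusted p under 0.05 and DESeq2 also called 0. From day 3 to day 7, 7 passed, 2 higher and 5 lower, against 4.74% of all genes (2.06% higher, 2.69% lower), with KIF20A (-3.78, adjusted p = 0.00165), KIF2C (-2.89), KIF18B (-2.24) and KIF4A (-1.87) lower, and KIFC3 (3.19) and KIF1C (1.14) higher. Without WT day 7 replicate 1 the calls of KIF2C (adjusted p = 0.0654) and KIF4A (adjusted p = 0.0546) were lost. That count was 4 without WT day 7 replicate 1, 15 without HET day 7 replicate 1, and 11 without HET day 3 replicate 4 or WT day 7 replicate 4.

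The proteins that work with these motors were followed by lists. Of 16 spindle and midzone genes, 9 were lower and 0 higher in KO at day 3, 8 lower at day 7, and 9 lower in HET at day 7. The shares of all genes lower were 8.93%, 15.6% and 6.1% in these comparisons. BIRC5, a subunit of the chromosomal passenger complex, was 59 CPM on average in KO at day 3 against 118 in WT (log2 difference -1.02 ± 0.19, adjusted p = 0.00166). AURKB was lower by -1.51 on the log2 scale. Of 24 tested cargo adaptors, 8 were higher and 0 lower in KO at day 3, and 7 higher at day 7, beside 5 in HET at day 7. The shares of all genes higher were 12.6%, 17% and 8.31%. KIFAP3, the adaptor subunit of kinesin-2, was 53.8 CPM in KO at day 3 against 23.2 in WT (log2 difference 1.20, adjusted p = 0.00265). The kinesin light chains KLC1 (1.11, adjusted p = 0.000723) and KLC2 (1.01, adjusted p = 0.00271) were higher at day 3. PPFIA2, a liprin scaffold that binds KIF1A, was 24.1 CPM in KO at day 3 against 1.1 in WT and 121 against 24.9 at day 7 (log2 differences 4.44 and 2.28).

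Not every kinesin could be read. KIF2B, a depolymerase of mitosis, had 0 to 3 counts in every library, and KIF4B, a near-identical copy of KIF4A whose reads cannot be separated with certainty, had 2 to 15. KIF25, at 0 to 20 counts, passed the filter on low counts in some comparisons only. Where strand was not used in counting, reads of KIF20A cannot be told from BRD8 and CDC23 in the stretch they share, KIFC2 from FOXH1, KIF7 from TICRR, KIF4A from PDZD11, KIF18A from METTL15, KIF24 from UBAP1 or KIF2A from DIMT1, all on the opposite strand. KIF15 overlaps TMEM42 and KIF2A overlaps IPO11 on the same strand, where the use of strand would not separate them. KIF9 overlaps KLHL18 on the opposite strand, and other kinesins, among them KIF26B, overlap antisense or noncoding genes. The use of strand was not given in the sources used here.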

How the data were processed

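The deposited table gives expected counts per gene for 36 libraries, which the authors made from 151 bp paired-end reads of rRNA-depleted total RNA. The authors also deposited TPM values and FPKM values, the latter proportional to TPM within a library (largest deviation 0.0912% for values over 10). The submitters' processing notes name cutadapt 4.8, STAR 2.7.8a, RSEM 1.3.3 and GRCh38. The annotation version and the use of strand were not given in the sources used here. Expected counts were rounded to whole numbers, 4 reporter rows were left out, and genotypes were compared within a day with edgeR 4.0.16 in R 4.3.3 (TMM, filterByExpr, quasi-likelihood F test, Benjamini-Hochberg adjustment over all genes tested, threshold 0.05). WT days were compared on the 12 WT libraries and interactions on all 36. The SE of a log2 change was not estimated directly. It was taken as the absolute change divided by the square root of the F statistic. Tested kinesins numbered 38 at day 0, 40 at days 3 and 7, and 41 for interactions. Positions come from GENCODE on GRCh38 and promoters from RefSeq on GRCh38.p14. Members, roles and lists were chosen with earlier results of these data known.

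Genes were named by rule: in the main comparisons the 3 called members per role with the largest change and at least 1 TPM in the higher group, up to 6 elsewhere, 10 fixed kinesins and up to 4 partners per list. Other genes were chosen after their values were seen. Alternatives were DESeq2 1.42.0 and its size factors, library size alone, no filter, limma 3.58.1 on log2(TPM + 1) and log2(TPM + 0.1), the structural RNA share as a covariate, a replicate block and leaving out each library. Same-numbered libraries deviated together in KO and WT at day 0 (r 0.252 to 0.629) and day 3 (0.14 to 0.549) and in HET and WT at day 3 (0.166 to 0.767), by replicate number in the labels. On simulated data for KO against WT at day 3 (21563 genes) the edgeR fit recovered 91% of 2-fold and 100% of 4-fold changes, with 4.98% false calls. For the KO interaction from day 0 to day 3, over 36 libraries, it recovered 58% of 2-fold changes. The simulation gave every gene the same spread, so these shares do not measure recovery at the spread of the real libraries.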

Additional observations from a re-analysis of the deposited data

Results flagged for a closer look

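Among 135 groups of 4 libraries examined, 7 had a library far from the other 3, against 6.75 expected if chance sets 1 in 20 apart. KIF23 was 9.87 CPM in WT day 7 replicate 1 against 2.31 to 3.2 in the others. The same library had a mitotic share of kinesin TPM of 16.4% against 4.42% to 5.79%, and a transport share of 67.8% against 82.3% to 85%. KIF2C was 2.2 CPM in HET day 7 replicate 1 against 0.098 to 0.401. KIF20A was 78.7 CPM in HET day 0 replicate 2 against 116 to 123. KIF5A stood at 312 CPM in replicate 4 of KO day 7, below the other 3 at 367 to 376, and KIF21B was 226 CPM in KO day 3 replicate 2 against 106 to 108.

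The change over time differed between genotypes by an interaction term in edgeR for 10 of 41 kinesins between KO and WT from day 0 to day 3 (8.55% of all genes), for 15 of 41 between KO and WT from day 3 to day 7 (18.5%), and for 7 of 41 between HET and WT from day 3 to day 7 (4.74%).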

How the results depend on the processing

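Of 160 called kinesin values, 49 lost the call without at least 1 library and 32 under at least 1 other count-based setting, and none changed sign on counts. Values with 2 to 15 counts per library are limited by depth. Leaving out 1 library gave 0 to 2 kinesins for KO against WT at day 0, 19 to 24 at day 3 and 23 to 27 at day 7. For HET against WT these were 1 to 1, 0 to 5 and 6 to 29, and for KO against HET 1 to 1, 0 to 8 and 0 to 2. The WT course gave 16 to 20 from day 0 to 3 and 26 to 30 from day 3 to 7, and interactions 6 to 12 and 12 to 16 for KO and 0 to 0 and 4 to 15 for HET. DESeq2 called 5 kinesins for HET against WT at day 3, 15 and 1 for KO against HET at days 3 and 7, and 11 for the later HET interaction. Size factors from DESeq2 gave 1 and library size alone 0 for HET against WT at day 3. Without a filter, KO and HET against WT at day 0 and KO against HET at day 7 gave 1 each. The structural RNA covariate gave 1, 4 and 8 for HET against WT at days 0, 3 and 7, and 14 and 4 for KO against HET at days 3 and 7. The replicate block gave 8 for HET against WT at day 3 and, in unpaired libraries, 17 for KO against HET at day 3; in the paired comparisons it changed no call beyond those given with the results.

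With limma on log2(TPM + 1), KO against WT gave 0, 3 and 9 kinesins at days 0, 3 and 7, HET against WT 1, 0 and 6, and KO against HET 0 at days 0 and 3. WT from day 0 to 3 gave 29, and the interactions 1 and 2 for KO and 0 for HET from day 3 to 7. A pseudocount of 0.1 gave the same counts except 4 for the later KO interaction and 1 for KO against HET at day 7. Without the TPM filter the counts were 0, 0 and 1 for KO, 0 at each day for HET and KO against HET at days 0 and 3, 29 for WT from day 0 to 3, and 1, 2 and 0 for the interactions. On TPM the WT change of KIF5C from day 0 to 3 turned from 0.95 to -0.037 (-0.042 with 0.1, -0.037 without the filter), or 0.79 relative to all genes. The KO interaction from day 3 to 7 turned from -3.43 to 0.076 for KIF2C and from -2.73 to 0.38 for KIF18B on log2(TPM + 1), with and without the filter. With a pseudocount of 0.1 these were -1.35 for KIF2C and -0.48 for KIF18B, so the change of sign went with the pseudocount. The cause of the KIF5C change was not tested.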

Other observations

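Cytoplasmic dynein is the motor that returns cargo toward the cell body, and 17 genes of dynein, dynactin and their adaptors were measured. In WT from day 3 to day 7, 13 rose and 1 fell, where 23.3% of all genes rose and 22.9% fell. DYNC1I1, a neuronal intermediate chain, went from 0.234 CPM on average to 15.2 CPM (log2 change 6.02 ± 0.55, adjusted p = 8.25e-07), and DCTN1, the large dynactin subunit, rose by 2.13. The gene that fell was NDE1, a dynein regulator needed in dividing progenitors, by 1.47. In KO at day 3, 9 of 17 were higher than in WT and 0 lower (all genes, 12.6% and 8.93%), with BICD1, a cargo adaptor, at 306 CPM against 66.3 (log2 difference 2.19 ± 0.28, adjusted p = 0.000126). HET against WT at day 3 gave BICD1 alone (1.27, adjusted p = 0.0195). At day 7, 5 were higher and 1 lower in KO (all genes, 17% and 15.6%), and 2 higher and 1 lower in HET (all genes, 8.31% and 6.1%), the lower one being NDE1 in both.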
